A study of Danio rerio with 12 samples.

Results

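The Iroquois homeobox genes were followed in whole zebrafish embryos in which the TALE factors Pbx2, Pbx4 and Prep1.1 had been knocked down. The members were chosen by gene symbol: irx1a, irx1b, irx2a, irx3a, irx4a, irx4b, irx5a, irx5b, irx6a and irx7 make up 10 of the 14850 genes listed in the tables. RNA-seq of polyA RNA was available for 12 libraries of the Ekwill strain, 3 each from control embryos at 6hpf (early gastrula), TALE KD embryos at 6hpf, control embryos at 12hpf (segmentation stages) and TALE KD embryos at 12hpf. For TALE KD, antisense morpholino oligos directed at the RNAs of prep1.1 (pknox1.1 in the tables), pbx4 and pbx2 were mixed and injected at the first cell stages, which gives a transient block that is not restricted to a tissue. What the control embryos of the RNA-seq were injected with is not given in the sources used here.

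Iroquois genes encode homeodomain transcription factors that carry a conserved Iro box, and they were first described in Drosophila as regulators of proneural genes. Like Pbx, Prep and Meis, they belong to the TALE class, named for a 3-amino-acid loop extension in the homeodomain, but they form a family of their own and were not targeted by the morpholinos. Vertebrate Iroquois genes lie in small chromosomal clusters and act in the patterning of the neural plate, and later in heart, retina and kidney. In zebrafish, irx7 and irx1b are known for their role in the rostral hindbrain, where irx7 helps to position a rhombomere boundary.

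Libraries held between 11884805 and 40924982 estimated counts, with 11884805 to 15031243 at 6hpf and 19783326 to 40924982 at 12hpf. All 6 tested gastrula markers fell from 6hpf to 12hpf in control embryos and 6 of 7 tested segmentation markers rose. RNA of the targeted genes was not lower after TALE KD at 12hpf: in CPM (counts scaled to the size of each library), control libraries ranged from 84.5 to 91.5 for pbx2, 284 to 333 for pbx4 and 47.3 to 49.6 for pknox1.1, and TALE KD libraries from 237 to 260, 316 to 395 and 54.8 to 57.4. A morpholino that blocks translation need not lower its target's RNA. At 12hpf the control and TALE KD libraries of replicate 3 stood apart from replicates 1 and 2, and the study left out an unnamed 12hpf replicate. All 12 libraries were kept here, and values without replicate 3 are given where they matter.

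At 12hpf, irx3a fell in TALE KD embryos. irx4b, irx5a and irx6a did not pass the test. Their TALE KD libraries lay below the controls with no overlap between the groups, as did those of 16.3% of all 11640 genes tested. The genes best known from the hindbrain, irx1b and irx7, did not pass the test in either direction. Levels are given throughout as CPM after TMM scaling of all 12 libraries, and a gene was called when it differed by 1.5-fold or more and edgeR's quasi-likelihood test gave an adjusted p (Benjamini-Hochberg over all genes tested) no higher than 0.01. The filter of a mean of 10 counts left 9 of the 10 members for this test. Of these, 1 was called lower and 0 higher, against 1.26% of all 11640 genes called lower. The median log2 fold-change was -0.149 over the 9 members and -0.00325 over all genes, and 7 of the 9 values were below 0. Among these, irx2a (-0.016) and irx5b (-0.12) changed sign in fits that left out a single library.

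irx3a, whose mouse counterpart sets a progenitor boundary in the ventral neural tube, stood at 65.32, 62.36 and 67.35 CPM in the control 12hpf libraries of replicates 1, 2 and 3. In the TALE KD 12hpf libraries it stood at 37.15, 42.19 and 47.59 CPM. The groups did not overlap, and the highest TALE KD library was replicate 3. TALE KD embryos thus held 65% of the control level (log2 fold-change -0.62, SE 0.0873, 95% interval -0.82 to -0.42, edgeR adjusted p = 0.00549). In a fit that blocks on the replicate number the value was -0.63 (adjusted p = 4.41e-05). DESeq2 gave -0.62 and also called irx3a lower (adjusted p = 5.13e-08). With library totals in place of TMM the value was -0.62 and missed the threshold (adjusted p = 0.0118). Leaving out single libraries changed the call. The call was kept without TALE KD replicate 3 (log2 fold-change -0.71, adjusted p = 7.01e-04), where 472 of all genes were called. The adjusted p moved above 0.01 without control replicate 1 (0.0301), 2 (0.0269) or 3 (0.0123). It also did so without TALE KD replicate 1 (0.0168) or 2 (0.039). The log2 fold-changes then lay between -0.65 and -0.54. Over all genes 22, 20, 148, 47 and 20 were called in these fits, in that order, against 181 with all libraries kept. Since these were whole embryos, fewer cells expressing irx3a and less irx3a RNA per cell cannot be told apart, here and for every gene below.

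irx5a, which in mouse acts in the heart and in retinal interneurons, also had replicate 3 as the highest of its TALE KD libraries at 12hpf. It stood at 24.72, 27.13 and 24.17 CPM in control embryos and at 16.04, 18.05 and 20.07 CPM in TALE KD embryos at 12hpf. No TALE KD library reached the lowest control library. The log2 fold-change was -0.49 (SE 0.0936, 95% interval -0.71 to -0.28, adjusted p = 0.0164), so irx5a missed both the adjusted p and, at 1.4-fold, the fold minimum. With the replicate block its adjusted p was 0.00107 and with DESeq2 0.00068, and in both fits the fold stayed under 1.5.

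irx6a, known from mouse retinal interneurons, was measured at low counts, with 18, 22 and 33 counts in the control 12hpf libraries and 9, 12 and 15 counts in the TALE KD 12hpf libraries. On the CPM scale these were 0.678, 0.853 and 1.38 against 0.43, 0.278 and 0.333. All 3 TALE KD libraries lay below all 3 controls, and control replicate 3 was the highest of the 6. TALE KD embryos had 34.8% of the control level, with a log2 fold-change of -1.52 (SE 0.368, 95% interval -2.37 to -0.68). The edgeR adjusted p of 0.0367 did not pass, whereas with the replicate block irx6a was called lower (log2 fold-change -1.56, adjusted p = 0.0081). With the block 2 members were called, irx3a and irx6a, against 3.31% of all genes called lower. By the adjusted p alone, without a fold minimum, 1 member passed in the fit without a block, against 2.09% of all genes lower, and 3 passed with it (irx3a, irx5a and irx6a), against 8.15%.

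irx4b, whose chick and mouse counterpart marks the ventricle of the heart, stood at 3.69, 4.53 and 2.68 CPM in control embryos and 2.20, 2.64 and 2.55 CPM in TALE KD embryos at 12hpf. The groups were separated by a narrow margin, between control replicate 3 and TALE KD replicate 2, and the log2 fold-change of -0.56 (SE 0.211, adjusted p = 0.135) did not pass. Its paralog irx4a was listed at 4, 3 and 4 counts in control embryos and 2, 0 and 4 counts in TALE KD embryos at 12hpf, too few to be tested. Without replicate 3 of both groups 3 members were called lower, namely irx3a (log2 fold-change -0.67, adjusted p = 2.38e-08), irx4b (-0.73, adjusted p = 0.00347) and irx5a (-0.59, adjusted p = 6.87e-06). Over all genes 729 were called in place of 181. That fit kept only replicates 1 and 2, the closest libraries of each group. Their difference, as chi-square per degree of freedom, was 2.61 in control and 3.1 in TALE KD embryos, against 12.4 to 23.5 for pairs with replicate 3. The spread that replicate 3 adds is absent from these adjusted p values and calls. In all, 4 of the 9 tested members had every TALE KD library below every control library and 0 had every one above, where 16.3% of all genes tested fell in each of these classes.

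**Figure D1:**
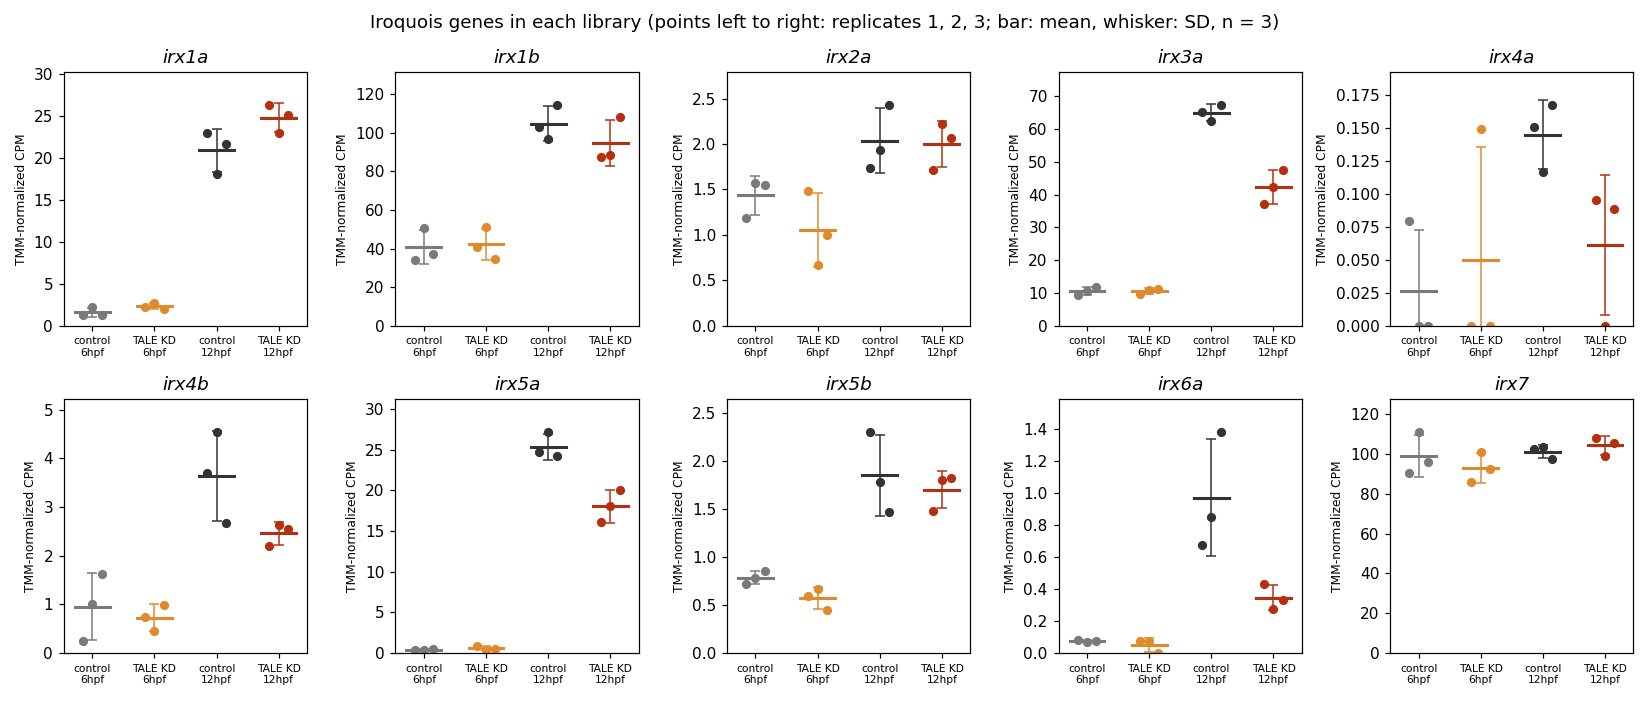
TMM-normalized CPM of each Iroquois gene (y axis, linear, a scale of its own per gene) in the 12 libraries, by group (x axis). Points are libraries, horizontal bars the group means and whiskers the SD (n = 3). The 3 TALE KD 12hpf libraries of irx3a lie at 37.15 to 47.59 CPM, below the 3 controls at 62.36 to 67.35 CPM, while the points of irx7 overlap in all 4 groups.

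For 5 further members the groups overlapped at 12hpf and the test was not passed. irx7 stood at 102.3, 103.5 and 97.46 CPM in control embryos and at 108.2, 99.01 and 105.7 CPM in TALE KD embryos. Its log2 fold-change of 0.036 (SE 0.0524, adjusted p = 0.712) had the tightest 95% interval of the family, -0.084 to 0.16. irx1b, its partner in the rostral hindbrain, stood at 102.7, 96.5 and 114.3 CPM against 87.48, 88.34 and 108.2 CPM, with replicate 3 the highest library of each group. The log2 fold-change of irx1b was -0.15 (95% interval -0.37 to 0.076, adjusted p = 0.372). The labels do not pair equal replicate numbers, and at 12hpf replicates 1 and 2 were not told apart. At each of the 3 numbers irx1b was lower after TALE KD, with an adjusted p of 0.0292 under the replicate block. Without replicate 3 of both groups the value was -0.18 (adjusted p = 0.00343), under the fold minimum. That fit rests on the closest libraries of each group alone.

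irx1a was the member with the largest positive value. Its levels of 22.92, 18.02 and 21.65 CPM in control embryos and 26.26, 22.87 and 25.06 CPM in TALE KD embryos overlapped narrowly, since TALE KD replicate 2 lay just under control replicate 1. The log2 fold-change was 0.23 (SE 0.101, 95% interval 0.00082 to 0.47, adjusted p = 0.183), and 0.24 with the replicate block (adjusted p = 0.0217). irx2a, whose chick counterpart takes part in forming the cerebellum, ranged from 1.73 to 2.43 CPM in control embryos and from 1.72 to 2.22 CPM after TALE KD, with a log2 fold-change of -0.016 (95% interval -0.49 to 0.46). irx5b, the paralog of irx5a, ranged from 1.47 to 2.30 CPM and from 1.48 to 1.82 CPM, with a log2 fold-change of -0.12 (95% interval -0.63 to 0.39). The interval of irx5b, at 31 to 82 counts a library, includes the value found for irx5a.

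**Figure D2:**
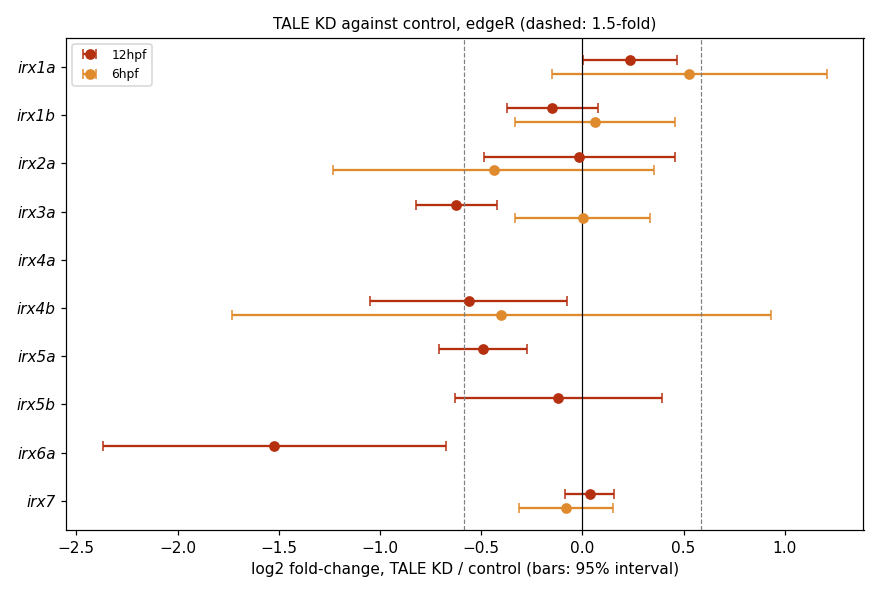
Log2 fold-change of TALE KD over control (x axis) for each Iroquois gene tested (y axis) at 12hpf (red) and 6hpf (orange). Bars are 95% intervals derived from edgeR's test, and dashed lines mark 1.5-fold. At 12hpf the intervals of irx3a, irx4b, irx5a and irx6a lie below 0 and that of irx1a lies just above 0 (0.00082 to 0.47). The 12hpf interval of irx7 runs from -0.084 to 0.16. At 6hpf every interval spans 0.

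Of the 4 tested members whose groups did not overlap at 12hpf, irx3a, irx5a and irx6a were adjacent on the chromosome, and irx4b lay in another group, beside irx1b. Of all genes tested, 16.3% had every TALE KD library below every control library in this way. In the RefSeq annotation of the zebrafish assembly GRCz12tu, used only for gene order since the counts were made on GRCz10, irx6a, irx5a and irx3a follow each other with 0 other protein-coding genes between them. The other members fell into the groups irx4a, irx2a and irx1a; irx1b and irx4b; irx5b beside irx3b, an Iroquois gene of the tables that is not among the 10; and irx7, which stood alone. The listed genes flanking irx6a, irx5a and irx3a, up to 5 on each side, included 9 that were tested at 12hpf. Of these 0 were called, where 181 of all 11640 genes tested were, and 1 of the 3 Iroquois genes there. The log2 fold-changes of the 9 neighbours ran from -0.59 to 0.77 with a median of 0.106. The lowest of them was lpcat2 (log2 fold-change -0.59, adjusted p = 0.0135, and 0.00056 with the replicate block). This value was below that of irx5a (-0.49, adjusted p = 0.0164, and 0.00107 with the replicate block). In that order lpcat2 was separated from irx6a by mmp2 (-0.18). The neighbours of the other groups numbered 7, 8, 10 and 6 tested genes, among which 1 was called, zgc:112994 near irx7 (log2 fold-change 0.75, adjusted p = 0.0025).

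**Figure D3:**
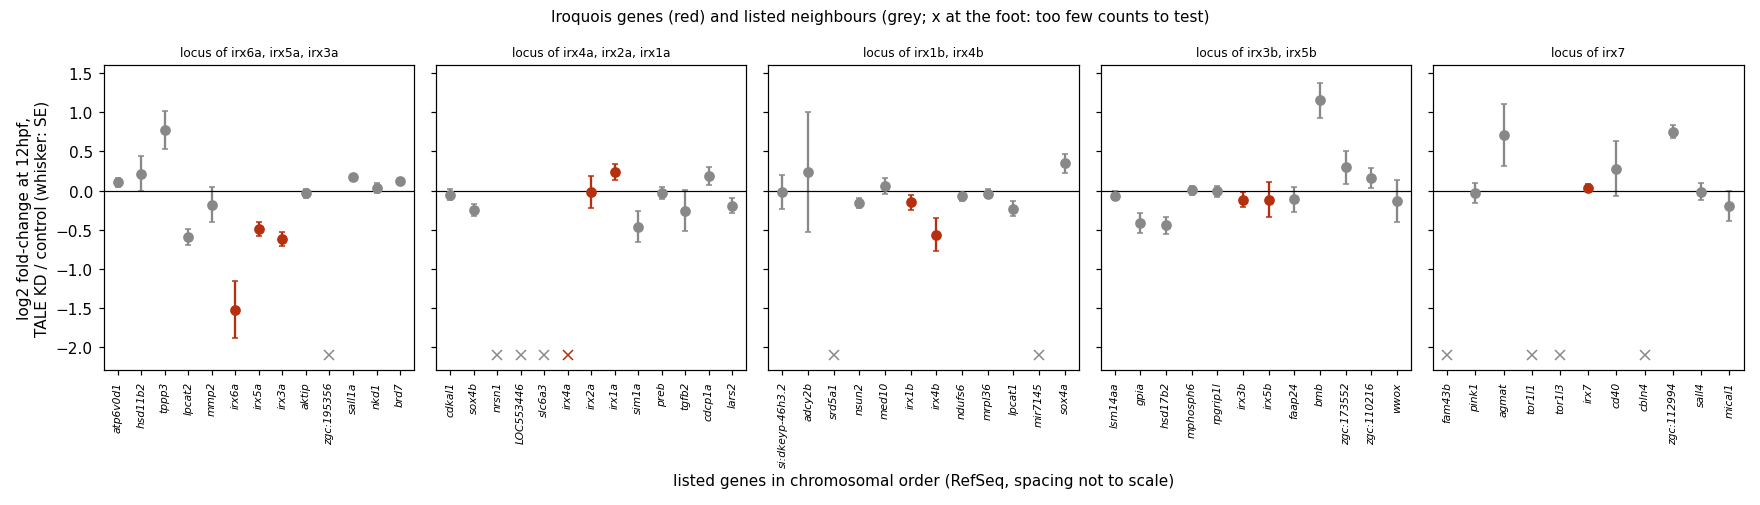
Log2 fold-change of TALE KD over control at 12hpf (y axis, whiskers are SE) for Iroquois genes (red) and their listed neighbours (grey) in the order of the chromosome (x axis, spacing not to scale), in 5 panels. Crosses at the foot are genes with too few counts to test. In the first panel irx6a, irx5a and irx3a lie at -1.52, -0.49 and -0.62, while the 9 tested neighbours run from -0.59 to 0.77.

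Other gene groups moved at 12hpf in the same libraries. Of 14 tested hindbrain and midbrain-hindbrain genes 4 were called lower and 0 higher (6 and 0 with the replicate block), 12 had values below 0 and the median log2 fold-change was -0.426. They were egr2b, a zinc finger factor of hindbrain segments (log2 fold-change -5.77), mafba, a regulator of the caudal hindbrain (-2.44), hoxa2b (-1.70) and hoxb1a (-0.78), Hox genes of the rostral hindbrain. irx7 and irx1b, known from the rostral hindbrain, had log2 fold-changes of 0.036 and -0.15 beside them. The other 10 tested genes of the list were not called, and the values of the list ran from -5.77 to 0.313. Of the 13 tested TALE-class genes outside the Iroquois family 1 was called lower, meis1a, a cofactor of Pbx and Hox proteins (log2 fold-change -0.74, adjusted p = 0.00956), and 1 higher, pbx2 (1.5, adjusted p = 2.06e-05), with a median of 0.0676. These lists were drawn up with earlier results of the same libraries known, so their direction is no independent evidence.

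Marker lists of tissues and states that could shift in TALE KD embryos also moved in part. The neural plate markers sox2, sox3 and sox19a together summed to 753.6 to 761.8 CPM in the control libraries at 12hpf and to 614.9 to 650 CPM after TALE KD, although 0 of the 3 were called. Most of this sum was sox19a, with group means of 487.6 and 420.1 CPM. The summed level of 4 genes of the p53 response was 935.5 to 1301 CPM and 1386 to 1742 CPM, with 0 called (2 with the replicate block) and the growth arrest gene cdkn1a at a log2 fold-change of 1.84 (adjusted p = 0.0116). ccng1 made up most of that sum, with group means of 703.9 and 1060 CPM. Summed gastrula markers were at 311.1 to 345.6 CPM and 355.2 to 413.2 CPM, with 0 of 6 called (2 higher with the replicate block). Summed segmentation markers went the other way, from 562 to 605.4 CPM in control libraries against 486.5 to 513.1 CPM after TALE KD. Of these 7, 2 were called lower (egr2b and the muscle factor myog), 0 higher, and 6 values were below 0. Much of the fall in this sum was egr2b, also in the hindbrain list, with group means of 52.75 CPM in control and 0.887 CPM in TALE KD embryos. Of the heart field markers nkx2.5 was called lower (log2 fold-change -2.45, adjusted p = 0.00872). The sum of 3 overlapped, most of it gata5 with group means of 134.1 and 154.9 CPM. The summed placode and axial mesoderm markers overlapped too. What part these shifts have in the lower values of irx3a, irx4b, irx5a and irx6a was not tested.

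At 6hpf no Iroquois gene passed. Of the 6 members tested (irx1a, irx1b, irx2a, irx3a, irx4b and irx7) 0 were called, against 0.0392% of all 10202 genes, and 0 had an unadjusted p under 0.05, where 577 of all genes did. DESeq2 and the replicate block also called 0 members. irx3a stood at 9.37, 10.64 and 11.93 CPM in control embryos and 9.65, 10.90 and 11.21 CPM in TALE KD embryos, so that the TALE KD libraries lay within the range of the controls. Its log2 fold-change was 0.0016 (SE 0.148, 95% interval -0.33 to 0.34).

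irx7 stood at 90.53, 110.9 and 95.87 CPM in control embryos at 6hpf, against 85.72, 101.0 and 92.42 CPM after TALE KD, with replicate 2 highest in both groups (log2 fold-change -0.080, 95% interval -0.31 to 0.15). For irx1b replicate 2 was also the highest in both groups, at 34.07, 50.79 and 37.09 CPM against 40.60, 50.92 and 34.82 CPM (log2 fold-change 0.062, 95% interval -0.33 to 0.46). irx1a, irx2a and irx4b had at most 36 counts in any 6hpf library and log2 fold-changes of 0.53, -0.44 and -0.40, each with a 95% interval that spanned 0. The genes left out by the filter were near the floor of detection. irx5a had 4 to 12 counts, irx5b 5 to 11, irx4a 0 to 2 and irx6a 0 or 1 in the 6hpf libraries. For irx5b the TALE KD libraries held 0.452 to 0.672 CPM (5 to 9 counts) and the controls 0.715 to 0.852 CPM (9 to 11 counts). These ranges did not overlap, but the difference was not tested and the share of all genes so separated at 6hpf was not counted.

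Whether the effect of TALE KD differed between the stages was asked directly in a fit over the 12 libraries. Of 8 members tested 0 passed the adjusted p of 0.01, against 0.0349% of all 11450 genes, and 2 members, as against 993 of all genes, had an unadjusted p under 0.05. For irx3a the effect at 12hpf minus that at 6hpf was -0.61 on the log2 scale (SE 0.16, 95% interval -0.95 to -0.26, adjusted p = 0.204). The block gave an adjusted p of 0.0374 and DESeq2 0.0614, so the fall of irx3a at 12hpf is not shown to differ from the effect at 6hpf. For irx5a the difference was -1.06 (SE 0.398, adjusted p = 0.47) and rested on its 4 to 12 counts at 6hpf.

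Between 6hpf and 12hpf most of the family rose, in control and TALE KD embryos alike. The stages were deposited as separate tables, and every 12hpf library was larger than every 6hpf library. Stage and any batch can therefore not be told apart in any of the stage comparisons. In control embryos 6 of the 8 tested members were called higher and 0 lower, against 32.8% of all genes called higher, and in TALE KD embryos the 6 were the same genes, against 31.5%. irx6a and irx4a were not tested, and irx5a and irx5b passed the filter only through their 12hpf libraries, so a rise was the one direction they could show. The stage comparisons share their libraries with the TALE KD comparisons above, and each is given by its own values.

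irx5a rose most. It went from 0.318, 0.429 and 0.465 CPM in the control 6hpf libraries to 24.72, 27.13 and 24.17 CPM at 12hpf, a 60.5-fold rise (log2 fold-change 5.92, SE 0.214, adjusted p = 2.19e-11). In TALE KD embryos it went from 0.891, 0.373 and 0.543 CPM to 16.04, 18.05 and 20.07 CPM (29.0-fold). Its paralog irx5b rose far less, from 0.715, 0.786 and 0.852 CPM to 2.30, 1.78 and 1.47 CPM in control embryos (2.31-fold, adjusted p = 9.22e-04) and 2.88-fold in TALE KD embryos. The log2 ratio of irx5a to irx5b went from -0.973 ± 0.171 at 6hpf to 3.80 ± 0.328 at 12hpf in control embryos (SD, n = 3), without overlap. An exact permutation test (two-sided) gave p = 0.1, the smallest that 3 against 3 allows. The 6hpf ratio rested on 4 to 6 counts of irx5a and 9 to 11 counts of irx5b a library, near the floor of detection. Its shift restates the fold-changes above and is no further evidence.

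irx1a and irx1b, also paralogs, both rose. irx1a went from 1.27, 2.21 and 1.32 CPM to 22.92, 18.02 and 21.65 CPM in control embryos (12.6-fold, adjusted p = 4.89e-10) and rose 10.4-fold in TALE KD embryos. irx1b went from 34.07, 50.79 and 37.09 CPM to 102.7, 96.5 and 114.3 CPM (2.52-fold, adjusted p = 2.6e-06) and rose 2.20-fold in TALE KD embryos. The log2 ratio of irx1a to irx1b moved from -4.69 ± 0.155 to -2.33 ± 0.143 in control embryos (SD, n = 3, exact permutation p = 0.1). This shift too restates the fold-changes of the paralogs. Between control and TALE KD embryos at 12hpf the ratios moved by 0.396 for irx1a over irx1b (exact permutation p = 0.1) and -0.391 for irx5a over irx5b (exact permutation p = 0.3), with adjusted values of 0.133 to 0.3 over the 4 ratio tests.

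irx3a rose 5.98-fold in control embryos, from 9.37 to 11.93 CPM at 6hpf to 62.36 to 67.35 CPM at 12hpf (log2 fold-change 2.58, SE 0.114, adjusted p = 1.4e-10). In TALE KD embryos it rose 3.92-fold (log2 fold-change 1.97, SE 0.114). Its order of levels was therefore both 6hpf groups, which overlapped, then TALE KD 12hpf, then control 12hpf. irx4b rose 3.70-fold in control embryos, from 0.238, 1.00 and 1.63 CPM to 3.69, 4.53 and 2.68 CPM (adjusted p = 7.92e-04). In TALE KD embryos it rose 3.36-fold (adjusted p = 0.00239), a call lost without TALE KD 6hpf replicate 2 (log2 fold-change 1.48, adjusted p = 0.0158). irx6a had 1 count in each control 6hpf library, and against a floor of 3 counts per library it was at least 2.85-fold higher at 12hpf in control embryos and at least 1.02-fold higher in TALE KD embryos. With no filter on low counts irx6a was tested and called higher in both. At 0 or 1 count in every 6hpf library, a rise was the one direction irx6a could show.

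**Figure D4:**
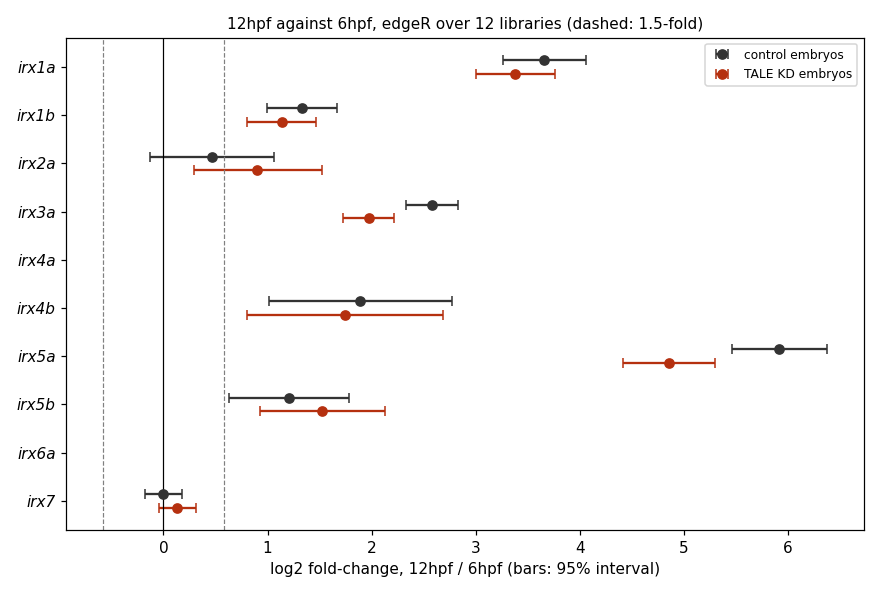
Log2 fold-change from 6hpf to 12hpf (x axis) for the 8 Iroquois genes tested (y axis) in control embryos (black) and TALE KD embryos (red). Bars are 95% intervals derived from edgeR's test over 12 libraries, and dashed lines mark 1.5-fold. irx5a lies farthest to the right at 5.92 and 4.86, and irx7 lies at -0.00093 and 0.13 with TMM scaling.

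irx2a and irx7 were not called between the stages. irx2a went from 1.19, 1.57 and 1.55 CPM to 1.73, 1.94 and 2.43 CPM in control embryos (log2 fold-change 0.47, adjusted p = 0.134). In TALE KD embryos, where TALE KD 6hpf replicate 1 was the highest of its group, the log2 fold-change of irx2a was 0.90 (adjusted p = 0.0103), and 1.25 without that library (adjusted p = 0.00301). irx7 was level, at 90.53 to 110.9 CPM in control 6hpf and 97.46 to 103.5 CPM in control 12hpf libraries, with a log2 fold-change of -0.00093 (SE 0.082, 95% interval -0.18 to 0.18). This zero is relative to the scaling: with library totals alone the median of all genes moved up by 0.239 in control and 0.235 in TALE KD embryos, and irx7 moved with it to 0.24 (adjusted p = 0.0206) and 0.37 (adjusted p = 0.00154). With TMM 44.2% of the calls in control embryos were lower, and 33.5% with library totals (44.4% and 33.2% in TALE KD embryos).

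The genes most like irx7 over the 12 libraries were zzz3, ppp1r14bb, proser3, cwf19l2 and ublcp1. Likeness was the root mean square difference between log2 profiles (CPM + 0.5), each centred on its own mean, among 11449 other genes. It was 0.0731 to 0.0739 log2 units for these 5, against a median of 0.445. Here and for irx1b below, the 5 were picked as the nearest, so a small distance and a like profile follow from the choice. All 5 were level, as zzz3 shows with group means of 77.3, 74.7, 74.5 and 79.5 CPM in control 6hpf, TALE KD 6hpf, control 12hpf and TALE KD 12hpf. For irx1b the nearest were tbck, hk1, trim32, git2a and pcm1, at 0.114 to 0.127 against a median of 0.719. hk1, the glycolytic enzyme hexokinase 1, had group means of 40.4, 42.6, 103 and 107 CPM, rising between the stages in control and TALE KD embryos.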

How the data were processed

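RNA was taken from whole embryos, and libraries were made with a stranded mRNA kit. The authors aligned single-end reads to the GRCz10 (DanRer10) transcriptome and quantified genes with RSEM 1.2.28, which shares out reads that match several transcripts. The deposited values are named as TPM, but they are estimated counts: columns sum to different totals (11884805 to 40924982), and 75.4% to 80% of values in a library are whole. They were rounded to whole numbers. edgeR 4.0.16 (R 4.3.3, TMM, glmQLFit and glmQLFTest) was used on genes that averaged 10 counts or more over the libraries fitted. Each stage was fitted by itself; stage contrasts and the difference of effects came from a single fit over 12 libraries. Thresholds were an adjusted p of 0.01 and 1.5-fold, with no fold minimum for the difference of effects. Each edgeR SE was derived from the test, as the absolute log2 fold-change divided by the square root of the F value. Intervals are edgeR's estimate and this SE with the t quantile of edgeR's degrees of freedom. Alternatives were DESeq2 1.42.0, its size factors, library totals, no filter, leaving out libraries, an adjusted p of 0.05 and the replicate number as a block. Equal replicate numbers of control and TALE KD deviated together (r of 0.45, 0.33 and 0.49 at 6hpf and 0.32, 0.35 and 0.57 at 12hpf), a pairing found in the data, not in the labels. At 12hpf replicates 1 and 2 were not told apart in this way (r of 0.3 and 0.27 across their numbers), and replicate 3 was. Replicates within a group differed by more than sampling noise (chi-square per degree of freedom 2.61 to 23.5). At 12hpf replicates 1 and 2 were the closest (2.61 in control and 3.1 in TALE KD embryos), against 12.4 to 23.5 for pairs with replicate 3. The labels call the libraries of a group biological replicates. The test was checked on simulated data that had no replicate effects and only changes larger than that of irx3a at 12hpf. That check does not bear on smaller changes. All members were named whatever their values, and called genes of the lists by name. Members and lists were chosen with earlier results of these data known. Of 14850 symbols 12833 were found in RefSeq, the 10 members included. The genes pbx3a, pknox1.2, otx2a, otx2b, chrd, tbxta and pax8 of the lists had no match in the tables by symbol. No gene lengths were used. Sums over marker genes, the share of a gene in such a sum and the ratios of paralogs are in CPM, not corrected for length. Levels of different genes are otherwise not compared.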

Additional observations from a re-analysis of the deposited data

How the results depend on the processing

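At 12hpf the number of Iroquois genes called was 1, where 181 of all genes were called. It was 2 with an adjusted p of at most 0.05 (irx3a and irx6a), where 398 of all genes were called. With the replicate block it was 2 (476 of all genes) and with library totals alone 0 (140 of all genes, irx3a adjusted p = 0.0118). Without replicate 3 of both groups it was 3 (729 of all genes). When a single library was left out it was 0 to 1, with 20 to 472 of all genes called. The block changed no other call in any comparison; over all genes it moved the calls at 12hpf from 181 to 476, at 6hpf from 4 to 23 and for the difference of effects from 4 to 37, and DESeq2 gave 326, 28 and 64. In TALE KD embryos between stages, irx2a was called with library totals (log2 fold-change 1.14) and with no filter (0.93). With no filter irx6a was called higher in control and TALE KD embryos (7 and 8 members called, with 7032 and 6760 of all genes called). It passed the filter, and was called, in both when any control 6hpf library was left out. In control embryos irx6a was also called when any TALE KD 6hpf library was left out. With 0 or 1 count in every 6hpf library, irx6a could only be called higher. The counts of members called stayed at 0 at 6hpf and for the difference of effects under every alternative run. Between stages they stayed at 5 to 7 (TALE KD) and 6 to 7 (control) when a library was left out. Over all genes 6220 to 6510 (TALE KD) and 6483 to 6745 (control) were called in those fits. Values near 0 changed sign. At 12hpf these were irx2a (-0.12 to 0.13 leaving out a library, 0.15 without replicate 3 of both groups) and irx5b (-0.25 to 0.066). At 6hpf they were irx3a (-0.0024 with library totals, -0.00043 with no filter, -0.0013 in the fit over both stages, -0.08 to 0.091 leaving out a library), irx1b (-0.098 to 0.26) and irx7 (-0.14 to 0.0085). Between stages in control embryos irx7 was at 0.0041 with the block, 0.24 with library totals, 0.028 with no filter and -0.064 to 0.0801 leaving out a library. The difference of effects for irx4b ran from -0.74 to 0.30. The cause of these changes was not tested. At 6hpf, low counts limit what could be seen for irx1a, irx2a and irx4b, and 4 further members were not tested.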

Other observations

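irx3b, an Iroquois gene of the tables outside the 10 described above and the neighbour of irx5b, rose the most of any Iroquois gene between the stages. It stood at 0.397, 0.50 and 0.232 CPM in control 6hpf libraries (3 to 7 counts) and at 39.69, 37.75 and 30.95 CPM in control 12hpf libraries, a 92.0-fold rise (log2 fold-change 6.52, SE 0.195, edgeR adjusted p = 3.95e-12), and it passed the filter only through its 12hpf libraries. In TALE KD embryos at 12hpf it stood at 32.61, 33.51 and 34.51 CPM, within the range of the controls. The log2 fold-change of -0.11 (95% interval -0.32 to 0.092, adjusted p = 0.463) did not pass, beside -0.62 (95% interval -0.82 to -0.42) for its paralog irx3a. The difference between the effects on irx3a and irx3b was not tested.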
